A study of Oryza sativa Japonica Group with 4 samples.

Results

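In rice seedling chromatin, 1615 places were enriched for lysine crotonylation with the same outline, to within 100 bp at each border, when read with either of the antibodies of the study. Each is an overlapping pair (1 bp or more) of a region from the list of the pan-crotonyllysine antibody (Kcr) and a region from the list of the antibody against crotonylated lysine 14 of histone H3 (H3K14cr). The pairs were chosen by their measured starts, ends and Kcr widths. The starts had to differ by at most 100 bp, the ends by at most 100 bp, and the Kcr region could be at most 2000 bp wide. Of 6145 overlapping pairs with a Kcr region of that width, 26.3% met the rule (95% Wilson interval 25.2 to 27.4%), and the other 4530 served as the reference throughout. The 1615 pairs held 14.8% of the 10923 Kcr regions and 8.58% of the 18813 H3K14cr regions.

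Crotonylation is a short, flat acyl group that is attached to lysine from crotonyl-CoA, in mammals by acetyltransferases such as CBP, and that is bound in mammals by YEATS and double PHD finger domains and removed by sirtuins and histone deacetylases. In mammals it is known from active promoters and enhancers. Lysine 14 lies in the tail of histone H3, which reaches out of the nucleosome, and its crotonylated form is one of many epitopes that a pan antibody can in principle bind.

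The material was wild-type Nipponbare, a japonica cultivar, germinated for 72 h and grown for 2 weeks without a treatment, and it was mostly leaf with some stem. The labels give 4 libraries, 2 for each antibody, and 1 list of regions for each antibody. No value per replicate, no score and no read number was at hand, so the depth is unknown and no difference has a replicate check. Intervals cover counting error only, and pairs are not replicates of a condition.

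The outlines were the same to the base in 2 pairs. On chromosome 3 both antibodies gave a region at 16571773-16572750, which is 977 bp wide. On chromosome 10 both gave a region at 12758925-12759818, which is 893 bp wide. The chromosome 3 pair lay 8037 bp from the nearest other region of either list and the chromosome 10 pair 3761 bp. The first distance was above and the second below the median of the members, 5542 bp.

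Each of the other 10 chromosomes also held a pair whose border differences added up to 18 bp or less. On chromosome 2 the Kcr region spanned 33863688-33864996 and the H3K14cr region began 1 bp later and ended at the same base. On chromosome 12 Kcr spanned 1219824-1220889 and H3K14cr 1219822-1220888. On chromosome 6 Kcr spanned 27399360-27400650 and H3K14cr 27399358-27400653, so that H3K14cr reached 2 bp and 3 bp farther. These 3 pairs measured 1308, 1065 and 1290 bp in the Kcr list and so lay within the interquartile range of the members, 1053 to 1372 bp.

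The closest pair of chromosome 1 lay at 27277690-27278889 in the Kcr list, with borders that differed by 3 bp and 4 bp. On chromosome 8 it lay at 3630794-3631905, with differences of 5 bp and 3 bp. On chromosome 5 it lay at 4683179-4684702, with differences of 7 bp and 3 bp. In the first of these both H3K14cr borders were outside the Kcr region, in the second too, and in the third both were inside it.

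On chromosome 9 the closest pair was among the 25 with a Kcr region over 1900 bp, with Kcr at 16153056-16154989 (1933 bp) and H3K14cr from the same start to 16155000. On chromosome 11 the 2 regions were both 1454 bp wide, and H3K14cr (11738267-11739721) was displaced by 6 bp from Kcr (11738261-11739715). On chromosome 4 the closest pair lay at 20103979-20105504 in the Kcr list and its borders differed by 3 bp and 10 bp. Chromosome 7 had the least exact of these 12 pairs, with Kcr at 22861386-22862633 and differences of 13 bp and 5 bp. Each of these was the best of 90 or more pairs on its chromosome, and they were 893 to 1933 bp wide in the Kcr list.

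Agreement to a few bases was uncommon among the members, and larger differences prevailed. Both borders lay within 10 bp of each other in 38 pairs, or 2.35% (1.72 to 3.21%), within 20 bp in 133 pairs, or 8.24%, and within 50 bp in 604 pairs, or 37.4% (35.1 to 39.8%). At least 1 border was identical in 41 pairs, with 26 identical starts and 17 identical ends. The larger of the 2 border differences had a median of 61 bp and the smaller a median of 21 bp. The start and the end were placed about equally well, since the absolute difference had a median of 39 bp at the start and 40 bp at the end. In 190 pairs 1 border differed by at most 10 bp and the other by 50 to 100 bp. The bases in both regions made up a median of 93.3% of the bases in either, with a lowest value of 80.7%. The rule limits the difference at each border to 100 bp, so all these values describe the selected pairs.

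**Figure D1:**
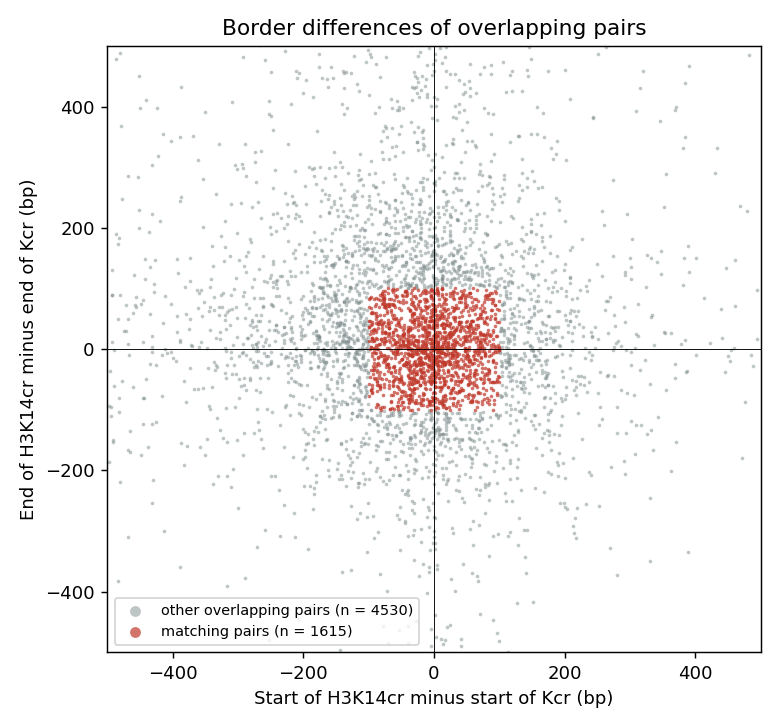
Each point is an overlapping pair with a Kcr region of at most 2000 bp. The horizontal axis gives the start of H3K14cr minus the start of Kcr and the vertical axis the end of H3K14cr minus the end of Kcr, both in bp and drawn from -500 to 500. The 1615 matching pairs (red) fill the square within 100 bp of zero on both axes, and the 4530 other pairs (grey) carry on from its sides without a gap and lie along both axes, more to the left and upward, where H3K14cr reaches farther than Kcr.

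Neither mark was clearly the wider one among the members. H3K14cr was wider in 820 pairs, or 50.8% (48.3 to 53.2%), Kcr was wider in 781 pairs, or 48.4%, and 14 pairs had equal widths. Kcr had a median width of 1188 bp (interquartile range 1053 to 1372 bp), and the H3K14cr partners had one of 1183 bp (1059 to 1375 bp). The median of the difference in width, H3K14cr minus Kcr, was 2 bp (95% order-statistic interval -2 to 6 bp). In the other overlapping pairs it was 267 bp, and H3K14cr was wider in 75.7% of them. The rule itself limits the width difference in the members to 200 bp, so this contrast follows from the selection.

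The rule cuts the signed differences at the same distance on both sides of 0, which draws their medians towards 0, so the following values describe the selected pairs only. H3K14cr started a median of 2 bp before Kcr (signed difference -2 bp, interval -5 to 0 bp) and ended a median of 2 bp after it (interval -1 to 5 bp). H3K14cr reached beyond Kcr at both ends in 429 pairs, or 26.6% (24.5 to 28.8%), and Kcr reached beyond H3K14cr at both ends in 360 pairs, or 22.3% (20.3 to 24.4%). H3K14cr was displaced to lower coordinates at both borders in 398 pairs (24.6%) and to higher coordinates in 387 pairs (24.0%). All 4 arrangements were therefore common, with the enclosing H3K14cr region the most frequent and the enclosing Kcr region the least frequent. The other 41 pairs were those with an identical border.

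The differences at the start and at the end were compared across pairs, within the range of 100 bp on either side of 0 to which the rule limits both. Pearson's r was -0.01 and Spearman's rho -0.01 over the 1615 pairs for the signed differences, and rho was 0.02 for their absolute sizes. The SD was 51.3 bp at the start, 51.9 bp at the end and 73.3 bp for the difference in width. Between the Kcr width and the larger border difference rho was -0.02. Each of these correlations is a description over pairs that come from the same 2 lists. The correlation of 0.94 between the widths of both marks is largely set by the rule, which ties them to within 200 bp; among the other overlapping pairs it was 0.34.

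The limit of 100 bp fell inside a continuous range of differences. By the larger border difference, 380 pairs lay between 61 and 80 bp, 439 between 81 and 100 bp, 410 between 101 and 120 bp and 316 between 121 and 140 bp. Exactly 20 pairs stood at 100 bp and 25 at 101 bp. Of the 4530 other pairs, 1541 had a larger difference of 101 to 200 bp. The members thus form the exact end of a gradual series, with no gap between them and their nearest non-members.

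**Figure D2:**
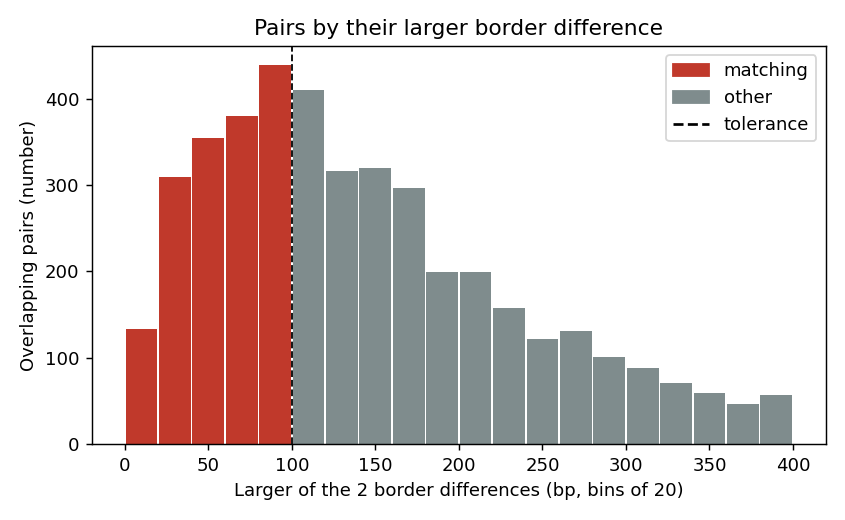
Bars give the number of overlapping pairs (Kcr at most 2000 bp wide) by the larger of the start and end differences, in bins of 20 bp up to 400 bp, with the matching pairs in red and the tolerance of 100 bp as a dashed line. The number rises from 133 in the first bin to 439 in the last bin inside the tolerance and is 410 in the next bin and 57 in the last bin drawn.

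The pairs at the limit show what the rule kept and left out. Just inside, Kcr at 20305483-20306731 on chromosome 9 faced H3K14cr at 20305583-20306733, with starts 100 bp apart and ends 2 bp apart. On chromosome 6 the pair at 19334018-19334727 (Kcr) differed by 4 bp at the start and 100 bp at the end. On chromosome 1 the pair at 42969969-42971071 (Kcr) differed by 5 bp and 100 bp. Among the pairs at exactly 100 bp these were picked for the smallest difference at the other border, as were those that follow at 101 bp.

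Just outside, Kcr at 3901989-3902977 on chromosome 9 differed from H3K14cr by 101 bp at the start and 3 bp at the end. Kcr at 34464001-34465145 on chromosome 3 differed by 101 bp and 4 bp, and Kcr at 19338725-19339714 on chromosome 9 by 101 bp and 6 bp. Apart from the 1 bp that decides, these pairs and the 3 before them overlapped to a similar extent, in 87.1 to 91.8% of the bases in either region. Beyond the limit on width, 138 of 882 overlapping pairs with a wider Kcr region, or 15.6% (13.4 to 18.2%), met the border rule. The narrowest of them had Kcr regions of 2003 bp on chromosomes 6 (13590094-13592097) and 7 (8525319-8527322) and of 2006 bp on chromosome 2 (481939-483945).

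A match at 1 border went with a match at the other slightly more often than without it. Among the 6145 pairs the starts lay within 100 bp in 3047, or 49.6%, and the ends in 3045, also 49.6%. The ends matched in 53.0% (51.2 to 54.8%) of the pairs whose starts matched and in 46.2% (44.4 to 47.9%) of those whose starts did not. Pairs with 1 matching border were therefore plentiful, with 1432 that matched only at the start and 1430 only at the end. In 823 pairs, or 13.4%, 1 border lay within 100 bp and the other was over 500 bp away. The remaining 1668 pairs matched at neither border. By arrangement, the 4530 other pairs consisted of 2065 with Kcr inside H3K14cr, 506 with H3K14cr inside Kcr and 1959 staggered pairs.

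The share of pairs with matching borders changed with the width of either region. In 10 groups of equal size by Kcr width, the share that matched was 16.6% (13.8 to 19.7%) among the narrowest (382 to 922 bp), 36.8% (33.0 to 40.7%) at 1015 to 1087 bp and 16.3% (13.6 to 19.4%) among the widest (1710 to 2000 bp). By H3K14cr width the share was between 40.4 and 42.1% in each of the 4 lowest groups (427 to 1263 bp) and then fell to 12.2% at 1759 to 2052 bp. It was 0 of 614 pairs at 2053 to 2658 bp, where only H3K14cr regions of up to 2200 bp could have met the rule at all. Widths belong to the rule, so these shares describe the selection.

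**Figure D3:**
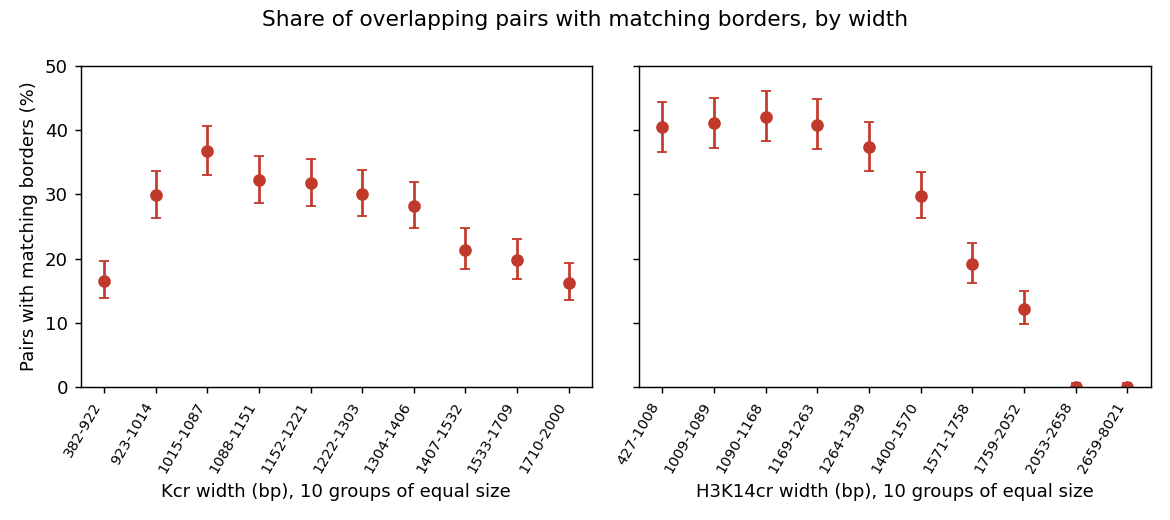
Points give the percentage of overlapping pairs (Kcr at most 2000 bp) with matching borders in 10 groups of equal size ordered by Kcr width (left) and by H3K14cr width (right), in bp, and bars are 95% Wilson intervals. On the left the share is highest, at 36.8%, for Kcr regions of 1015 to 1087 bp and lower on both sides; on the right it stays near 41% up to 1263 bp and is 0 in the 2 widest groups.

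The Kcr regions of the members were 428 to 1998 bp wide, and the 100 bp classes on either side of 1100 bp held the most. Of their Kcr regions, 307 were 1001 to 1100 bp wide and 300 were 1101 to 1200 bp wide, and 25 were over 1900 bp. The narrowest pair lay on chromosome 4, with Kcr at 9196407-9196835 (428 bp) and H3K14cr at 9196380-9196807 (427 bp). That H3K14cr region is also the narrowest of its whole list. The next narrowest Kcr regions were 612 bp on chromosome 12 (3796908-3797520) and 618 bp on chromosome 10 (20481461-20482079), so the first was set well apart.

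The widest pair lay on chromosome 3, where Kcr spanned 1484111-1486109 (1998 bp) and H3K14cr 1484187-1486176 (1989 bp). The next were on chromosome 6, with Kcr at 6782698-6784695 (1997 bp), and on chromosome 1, with Kcr at 28126008-28128001 (1993 bp). Their H3K14cr regions measured 1861 and 1986 bp. Kcr regions in matching pairs were on the whole somewhat wider than narrow Kcr regions without H3K14cr, whose median was 1085 bp. They were somewhat narrower than those of the other overlapping pairs, whose median was 1239.5 bp (interval 1226 to 1252 bp). Widths belong to the rule, so this order describes the selection.

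Pairs with matching borders occurred on each of the 12 chromosomes, a position that the rule did not use. Their number ranged from 90 on chromosome 10 to 217 on chromosome 1. Per Mb of the chromosome they ranged from 3.21 on chromosome 4 to 5.26 on chromosome 2, with 4.33 over all. As a share of overlapping pairs they were lowest on chromosome 4, at 21.8% (18.5 to 25.5%), and highest on chromosome 6, at 29.9% (26.0 to 34.1%). The intervals of these extremes do not overlap, but they were picked as the extremes of 12, and each other chromosome's interval overlaps both. With a tolerance of 50 bp the lowest share was on chromosome 5 (7.79%) instead, and the highest again on chromosome 6 (12.5%).

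**Figure D4:**
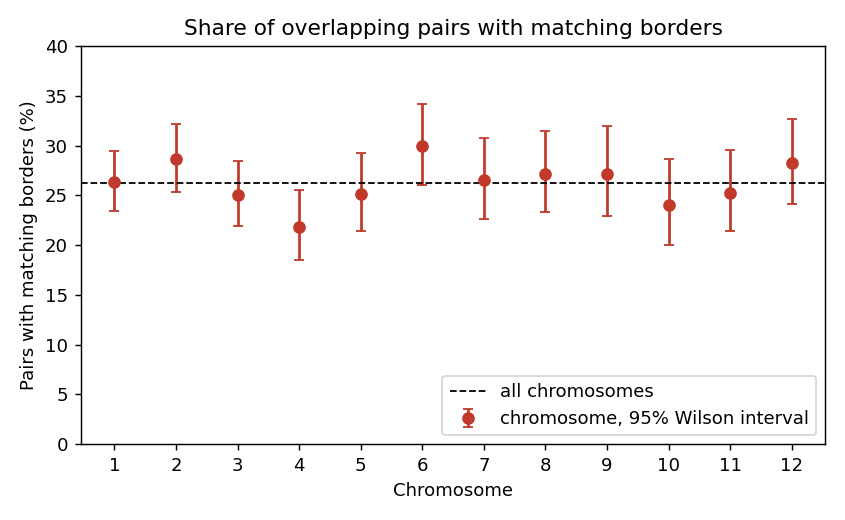
Points give the percentage of overlapping pairs (Kcr at most 2000 bp) with matching borders on each chromosome, bars are 95% Wilson intervals and the dashed line is the value for all chromosomes, 26.3%. Chromosome 4 is lowest at 21.8% and chromosome 6 highest at 29.9%, and the other points lie between 24.1 and 28.6%.

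Width and exactness were also summarised by chromosome. The median Kcr width of the pairs ranged from 1129 bp on chromosome 12 to 1230 bp on chromosome 9. The median of the larger border difference ranged from 53 bp on chromosome 6 to 66 bp on chromosome 5. H3K14cr was the wider region in 43.8% of the pairs on chromosome 6 and in 60.8% of those on chromosome 12. These values were picked as the lowest and highest of 12 chromosomes and carry no intervals. Whether the chromosomes differ was not tested.

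The share of members near chromosome ends was set beside those of the lists they came from. Within 2 Mb of an end lay 265 of them, or 16.4% (14.7 to 18.3%), compared with 15.9% (14.9 to 17.0%) of the other overlapping pairs, 17.1% of Kcr regions up to 2000 bp and 13.95% (13.5 to 14.5%) of all H3K14cr regions. Within 1 Mb of an end lay 10.5% (9.06 to 12.1%) of the members, 8.57% (7.78 to 9.42%) of the other overlapping pairs, 9.78% of Kcr regions up to 2000 bp and 7.09% of all H3K14cr regions. Within 5 Mb lay 35.8% (33.5 to 38.2%) of the members and 35.5% of the other overlapping pairs. For Kcr regions up to 2000 bp that share was 38.0% and for all H3K14cr regions 33.8%. The members thus stood between the lists at 2 Mb and 5 Mb. At 1 Mb they stood above both, where their interval overlaps that of the Kcr regions (9.21 to 10.4%). By arrangement, the share within 2 Mb was 13.9% (12.5 to 15.5%) for Kcr inside H3K14cr, 17.6% for H3K14cr inside Kcr and 17.5% (15.9 to 19.3%) for staggered pairs. Among the members of single chromosomes the share ran from 10.1% on chromosome 1 to 25% on chromosome 12. Long chromosomes have smaller ends for their length, and these values were not adjusted for that.

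Along the chromosomes the members were scattered thinly, with a median of 4 per full 1 Mb window (367 windows). Windows with more Kcr regions held more of them, with a Spearman's rho of 0.48 between these numbers, and rho was 0.26 with the number of other overlapping pairs. Both are descriptions over windows that share the same lists, and the first includes the members' own Kcr regions. The most, 14 pairs, lay in the window at 30000001-31000000 on chromosome 1, beside 21 other overlapping pairs, and in the first Mb of chromosome 12, beside 18. In the chromosome 1 window their Kcr widths ran from 1000 to 1948 bp with a median of 1479 bp, and in the chromosome 12 window from 947 to 1696 bp with a median of 1225.5 bp.

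No member lay in 12 of the windows, or 3.27%. Of these, 3 were on chromosome 4, from 3000001, 6000001 and 17000001, where Kcr had 7, 14 and 10 regions in all. Others had many Kcr regions and still no matching pair. The window at 21000001-22000000 on chromosome 9 held 36 Kcr regions, 58 H3K14cr regions and 24 other overlapping pairs, and the window at 12000001-13000000 on chromosome 3 held 37, 64 and 18. Chromosomes 6, 10 and 12 had no such window.

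The next Kcr region after a matching one was matching slightly more often than after any Kcr region, with overlapping intervals. The median gap between neighbouring matching pairs was 142657 bp, beside 50081.5 bp between the more numerous other overlapping pairs, and 100 of 1603 gaps, or 6.24%, were at most 10 kb. Following a matching Kcr region up the chromosome, the next Kcr region was itself matching in 269 of 1614 cases, or 16.7% (14.9 to 18.6%). After any Kcr region, matching ones included, the share was 14.8% (14.1 to 15.5%). It was 16.0% (14.9 to 17.1%) after other overlapping regions and 13.5% (12.5 to 14.6%) after Kcr regions without H3K14cr. After overlapping Kcr regions over 2000 bp wide it was 10.6% (8.75 to 12.9%). The region next to a matching one was without H3K14cr in 33.3% (31.0 to 35.6%), compared with 36.1% (35.2 to 37.0%) after any. Of the 1346 runs of adjacent matching Kcr regions, 1131 were single pairs, 173 held 2, 32 held 3, 8 held 4 and 2 held 5.

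Of the 2 longest runs, the more compact lay on chromosome 1, where 5 matching pairs followed each other at 30655180-30691700, within 36.5 kb. Their Kcr regions were 1923, 1948, 1916, 1173 and 1832 bp wide and the H3K14cr regions 1855, 1913, 2036, 1130 and 1853 bp. Of the 5 pairs, 4 were thus near the upper limit of width. This run lies in the densest window of chromosome 1 named above.

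The other run of 5 lay on chromosome 8, at 12797387-12914010, and was spread over 116.6 kb. Its Kcr regions were 1128, 1224, 785, 1005 and 1315 bp wide and its H3K14cr regions 984, 1206, 948, 1074 and 1299 bp. Here the regions were narrower and the borders less exact, with a larger difference of over 80 bp in 4 of the 5 pairs. The third and the fourth of them lay at 12873705-12874490 and 12875050-12876055 in the Kcr list and are the second closest neighbours of all. The gap between these pairs was only 387 bp, from the first H3K14cr end at 12874571 to the second H3K14cr start at 12874958.

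The closest neighbours lay on chromosome 1, with Kcr at 28512790-28514171 and 28514225-28515937 and H3K14cr at 28512876-28514220 and 28514244-28515955. Only 5 bp separated the first pair from the second, and both lists had a short gap between them. The third closest lay on chromosome 11, with Kcr at 19753391-19754926 and 19756270-19757482. Their gap of 1259 bp ran from the end of the first H3K14cr region, at 19755011, to the start of the second Kcr region. At the other extreme, the pairs on chromosome 4 with Kcr at 15915401-15916630 and 16900023-16900961 were each other's nearest matching pair at 983.4 kb. A pair on chromosome 7 (Kcr 19164310-19165377) was 906 kb from any other. All 3 had an unmatched region of either list within 3.4 kb, so they were far from other members but not from other crotonylated regions.

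The distance to further crotonylated regions was much the same for members and for other overlapping pairs, with overlapping intervals. The nearest region of either list outside the pair was a median of 5542 bp away (interval 5268 to 5818 bp; interquartile range 3245 to 9286.5 bp), and for the other pairs 5474.5 bp (5333 to 5625 bp). By arrangement the latter was 5388 bp for Kcr inside H3K14cr, 5872 bp (5469 to 6371 bp) for H3K14cr inside Kcr and 5473 bp for staggered pairs. The nearest region belonged to the H3K14cr list in 73.6% (71.4 to 75.7%) of the members and in 70.4% (69.0 to 71.7%) of the other pairs. Cases of equal distance were left out. The H3K14cr list is also the longer one, with 18813 regions beside 10923 in the Kcr list. The next H3K14cr region was a median of 6275 bp away and the next Kcr region 10311 bp, beside 6384.5 and 10135 bp for the other pairs. Of the members, 140, or 8.67%, had another region within 1000 bp, and 360, or 22.3%, had none within 10000 bp. For the other pairs these shares were much the same, at 9.51% and 22.5%.

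**Figure D5:**
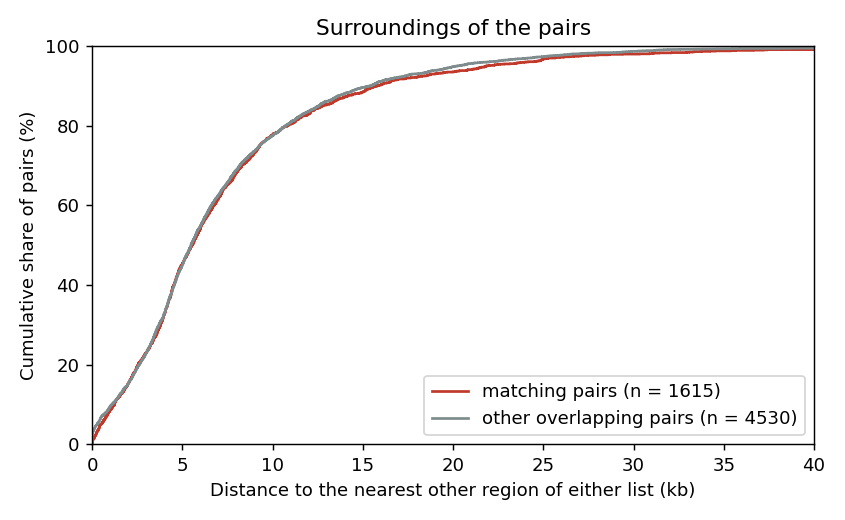
Lines give the cumulative percentage of pairs by the distance in kb to the nearest region of either list outside the pair, drawn up to 40 kb, for the 1615 matching pairs (red) and the 4530 other overlapping pairs (grey). The lines nearly coincide, with medians of 5542 and 5474.5 bp.

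With both borders within 100 bp, a further region can overlap a member only in a short overhang, so the rule nearly fixes that the pairing is exclusive. In 1609 of the 1615 pairs, or 99.6%, neither region overlapped any other region of the opposite list, and the same held for 4413 of the 4530 other overlapping pairs, or 97.4%. In the other 6 members the Kcr region also overlapped a second H3K14cr region, and in no pair did the H3K14cr region overlap a second Kcr region. Together the members contributed 1.93 Mb of sequence that was in both lists, or 21.0% of the 9.19 Mb that the lists have in common. The Kcr regions of the members added up to 1.99 Mb and the H3K14cr regions to 2.00 Mb.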

How the data were processed

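Chromatin immunoprecipitation and sequencing (ChIP-seq) was applied to seedlings with 2 antibodies, in 2 libraries each, per the labels. The submitters' processing notes name Bowtie as the aligner. Its version, genome build, peak caller, threshold, the use of the mock precipitation with rabbit serum, and whether replicates were pooled were not given in the sources used here. Each deposited list, as made by the authors, holds a chromosome, a start and an end per region and no other values. Whether starts count from 0 or 1 is unknown, so a printed position may be off by 1 bp. Width is end minus start. Chromosome lengths were taken as the last region end in either list.

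The lists were paired in Python 3.11.15 with pandas 2.3.3 and numpy 2.4.6. Medians came from numpy, and intervals and correlations from scipy 1.17.1. Shares carry 95% Wilson intervals, and medians 95% exact order-statistic intervals. No test was run, since the lists hold no replicates. The pairing was tested on simulated lists. The members and summaries were chosen with earlier results of these data known. Named were the most exact pair of each chromosome, the 3 widest, narrowest, closest and most isolated pairs, those at the tolerance and at the width limit, the longest runs and the extreme 1 Mb windows. Those at the width limit were added after the data were seen. Genes and sequence were not analysed here, since no build could be matched to the lists.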

Additional observations from a re-analysis of the deposited data

How the results depend on the processing

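No paired analysis was possible because each antibody has 1 list for both replicates, and no replicate could be left out. Of 53 alternatives over 11 results, 39 gave a value that counted as the same and 14 did not. The same meant within the interval of the original. For counts and ratios it meant within 1.5 times, and for Spearman's rho equal to the second decimal. Reversals numbered 0, but counts, Kcr widths, distances, shares and ratios cannot change sign, so none was possible there. A required reciprocal overlap of 50% kept all 1615 pairs by construction, since the lowest shared part was 80.7%. The number of pairs was 604 at a tolerance of 50 bp, 3156 at 200 bp and 753 with Kcr regions at least as wide as the median of their list. The gap between neighbouring pairs moved with that number, to 405751 bp at 50 bp, 73190 bp at 200 bp and 132502 bp without the width limit. At 200 bp the median width difference was 19 bp, the start difference -8 bp, the end difference 10 bp and the share with H3K14cr beyond Kcr at both ends 30.4%. These medians thus moved away from 0 with a wider tolerance. At 50 bp the share with H3K14cr beyond Kcr at both ends was 24.5%, near the lower limit of the original interval. Without the width limit the median Kcr width was 1212 bp. The share near chromosome ends was 10.5% for ends of 1 Mb and 35.8% for ends of 5 Mb. Spearman's rho with other overlapping pairs was 0.18 in 500 kb windows. The alternative that needs genes was not run. Without read numbers, a border difference cannot be set against the precision of the borders.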
